A study of Mus musculus with 33 samples.

Results

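The replication-dependent histone genes encode most of the core histones H2A, H2B, H3 and H4, which form the nucleosome, and of the linker histone H1, which binds the DNA between nucleosomes. They were taken as every gene whose listed name begins with Hist, a cluster number from 1 to 4, h and a family number from 1 to 4. The rule found 70 of the 38899 genes listed in all the tables. By family these are 6 H1, 20 H2A, 19 H2B, 12 H3 and 13 H4 genes. In GENCODE vM21 on GRCm38, 56 of them are named for the Hist1 cluster and lie on chromosome 13, 10 in Hist2 lie on chromosome 3, 3 in Hist3 on chromosome 11 and 1 (Hist4h4) on chromosome 6. Of the 70, 67 have a coding transcript there, and Hist1h2aj, Hist1h2al and Hist3h2bb-ps are annotated as pseudogenes.

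These genes are transcribed during S phase, when new DNA is packed into chromatin. Most of their mRNAs end in a short stem-loop in place of a poly(A) tail. The stem-loop binding protein SLBP holds this structure, U7 snRNP guides the cut just behind it, and the mRNA is degraded when replication stops. Some members can also be read through to a downstream polyadenylation signal, which gives a polyadenylated transcript of the same gene. A library primed on poly(A) tails and a library made from total RNA therefore see different parts of the output of this family.

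The 3′ stem-loop was searched in the annotated transcripts within 100 bases after the stop codon, on the coding strand, as the stem GGCNCT, the loop TTTN and the closing stem AGNGCC without a gap. It was found in 42 of the 67 coding members, and in 40 of the 48 (83.3%) whose model holds at least 60 bases there. Among 20363 other protein-coding genes with that much sequence, 2 (0.00982%) held it. The form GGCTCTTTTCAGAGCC stood in 26 members, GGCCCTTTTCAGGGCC in 7, all H4 genes, and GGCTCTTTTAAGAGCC in 6. The lines below show it (capitals) with the bases beside it, 5′ to 3′, in genes on which the results turn: linker histone genes, the near-identical H2A genes Hist1h2ao and Hist1h2ap, and Hist1h3f, which was seen almost only in total RNA.
Hist1h1c: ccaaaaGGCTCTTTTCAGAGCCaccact
Hist1h1e: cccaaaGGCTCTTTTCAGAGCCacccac
Hist1h2ao: aaaaaaGGCTCTTTTCAGAGCCatccac
Hist1h2ap: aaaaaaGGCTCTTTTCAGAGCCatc
Hist1h3f: caaaacGGCTCTTTTAAGAGCCacctcc

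The members printed above all match the searched stem-loop, with Hist1h3f in another form than the rest. These members differed in how they were seen in the poly(A)-primed libraries, as given further on. A second feature was looked for after the levels had been seen, namely the longest run of A between the start codon and the end of the stem-loop. It was 12 bases in Hist1h2ao and Hist1h2ap, where it begins at base 27 after the stop codon, directly before the stem-loop. It was 8 bases in Hist1h2ae, beginning at base 21, and at most 7 in the other 39 members with a stem-loop. Past the stem-loop, where fewer models hold sequence, longer runs stood in Hist1h2ac (15 bases), Hist1h2be (11) and Hist1h1d (8), and the poly(A)-primed mean of Hist1h2ac was 0.867 FPKM. The stretches follow, with the run of A in capitals, because Hist1h2ao and Hist1h2ap were among the members with the highest poly(A)-primed levels.
Hist1h2ao: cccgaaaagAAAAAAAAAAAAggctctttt
Hist1h2ap: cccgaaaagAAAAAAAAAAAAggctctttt
Hist1h2ae: taatctcgtAAAAAAAAcaaaggctc

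Upstream, the octamer ATTTGCAT, searched on both strands of RefSeq promoters (250 bases before to 50 after the start, GRCm38.p6), stood in 7 of 17 H2A promoters (41.2%) and 7 of 16 H2B promoters (43.8%). It stood in none of the 6 H1, 10 H3 and 12 H4 promoters. Over all RefSeq promoters of that length the share was 1.97% (532 of 27025). A match is a description of the letters and not a bound site. The promoter of the H2B gene Hist1h2bg is shown as an example with the octamer in capitals, because this gene differed most between LSK cells and bone endothelial cells among the tested H2B genes. It lies at chr13:23571150-23571449 on the + strand.
Hist1h2bg: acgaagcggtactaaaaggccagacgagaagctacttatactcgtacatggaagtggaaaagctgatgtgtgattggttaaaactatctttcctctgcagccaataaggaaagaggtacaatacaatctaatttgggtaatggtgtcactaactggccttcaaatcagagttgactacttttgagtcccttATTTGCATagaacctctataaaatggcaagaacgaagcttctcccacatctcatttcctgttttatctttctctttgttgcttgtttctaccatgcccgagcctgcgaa

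RNA sequencing was done on 33 libraries of C57BL/6 mouse bone marrow cells from mice of 8 to 12 weeks, 3 libraries in each of 11 groups, deposited in 4 tables normalized separately. In the first table, whole bone marrow cells (BMC), lineage-depleted cells (Lin-) and the stem and progenitor fraction LSK came from untreated wild-type femur and tibia, and Bone EC and Irradiated bone EC from Cdh5-mTnG mice, untreated or after 9 Gy of irradiation. EC stands for endothelial cells, and Cdh5 is the endothelial cadherin gene whose control region drives the reporter. The second table held Vav1 control EC and Vav1 DTX EC, both from mice labelled Vav1-Cre R26-DTR Cdh5-mTnG and both given diphtheria toxin by their labels. Their titles (EC_ctrl and EC_DTX) and sample descriptions (Vav1-Cont and Vav1-Cre) separate them. The descriptions name Cre in the DTX group only, while the genotype label gives it in both. Whether the groups differ in genotype, in toxin or in both cannot be told from these labels. Vav1-Cre acts in blood cells, and R26-DTR gives cells with Cre a receptor for diphtheria toxin. The third held Apln+ EC (Apln-CreERT2 R26-mTmG, tamoxifen) and Diaphysis EC (Cdh5-mTnG, femur, untreated). The fourth held 9Gy1D EC (Cdh5-mTnG, 9 Gy) and Esm1+ EC (Esm1-CreER R26-mTmG, tamoxifen). These last pairs thus differ in mouse line and agent as well as in the cells sorted. Nothing in the sources used here says whether replicates came from separate animals, so p-values measure only the spread between these libraries.

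BMC and Lin- libraries were made with a total RNA kit, and the other 27 libraries with a kit primed on poly(A) tails. The reads recovered from the values came to 1.55 to 12.29 M (mega) per library. The 10 pan-endothelial markers (Cdh5, Pecam1, Kdr and others) made up 0.345 to 0.422% of the summed FPKM in Bone EC and 0.00297 to 0.00399% in BMC. Markers of blood cells were also high in Bone EC, where 10 erythroid genes made up 9.3 to 10.3% and 8 genes of neutrophil precursors 6.45 to 7.23%. Lin- replicate 3 stood apart with erythroid genes at 15.1% against 0.439 and 0.444% in the other Lin- libraries, and Vav1 DTX EC replicate 2 and Apln+ EC replicate 1 also stood apart from their groups. Esm1+ EC replicates 1 and 2 were closer to each other than any other pair of libraries. Values are FPKM, fragments per kilobase of transcript scaled by a size set for each library. The size implied by the values was not the number of reads recovered. Recovered reads were 0.677 to 0.707 times it in LSK and 1.099 to 1.178 times it in BMC. In GENCODE vM21, 26 members overlap exons of another gene, so their reads cannot be assigned with certainty. The gene models behind the values can differ from that annotation.

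Histone transcripts were a large share of the total RNA libraries and a small share of the poly(A)-primed ones. Summed over the 70 genes, the level was 16191, 18712 and 19535 FPKM in BMC and 18795, 24768 and 25012 FPKM in Lin-. In the same table it was 379, 385 and 399 FPKM in LSK, 525, 807 and 652 FPKM in Bone EC and 129, 83.3 and 67.5 FPKM in Irradiated bone EC. Every total RNA library lay above every poly(A)-primed library. As a share of all FPKM, histone genes made up 2.99% ± 0.394 in BMC and 4.39% ± 0.526 in Lin-, against 0.139% ± 0.00446 in LSK and 0.145% ± 0.0244 in Bone EC (mean ± SD, n = 3 each). The mean share of the total RNA groups was 35.9 times that of the 3 poly(A)-primed groups in that table. In this comparison the kit and the cells sorted change together and cannot be told apart, and in bulk samples fewer cells of a type and less RNA per cell cannot be told apart either.

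In the other tables, which hold only poly(A)-primed libraries, the summed level was 940, 1193 and 934 FPKM in Vav1 control EC and 997, 527 and 888 FPKM in Vav1 DTX EC. It was 482, 394 and 529 FPKM in Apln+ EC and 615, 524 and 655 FPKM in Diaphysis EC. It was 133, 81.1 and 84.2 FPKM in 9Gy1D EC and 384, 436 and 641 FPKM in Esm1+ EC. The lowest sums, at most 133 FPKM and without overlap with any other group, were those of the irradiated groups, Irradiated bone EC and 9Gy1D EC, though these come from tables that were normalized separately.

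**Figure D1:**
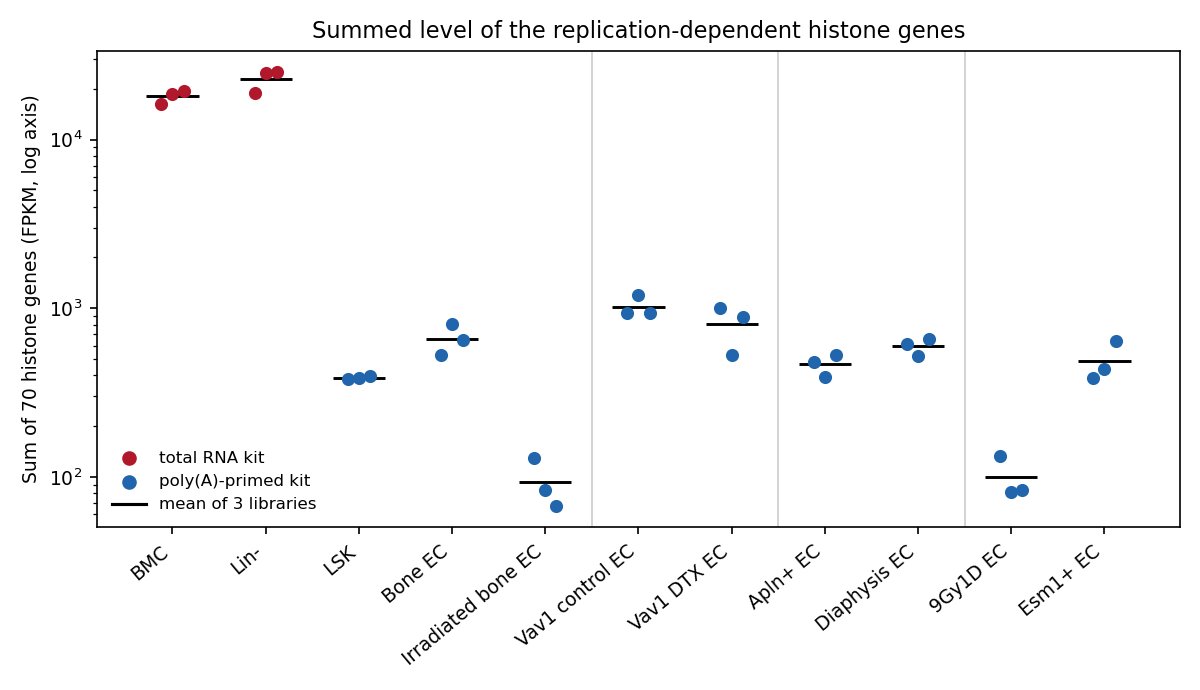
Summed FPKM of the 70 replication-dependent histone genes (log axis) in each of the 33 libraries by group, with points for libraries, colours for the kit and a line at the mean of 3. The 6 total RNA libraries lie between 16191 and 25012 FPKM, and the irradiated endothelial libraries between 67.5 and 133 FPKM.

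Gene by gene, BMC and Lin- together were set against LSK, Bone EC and Irradiated bone EC with limma on log2(FPKM + 1), among genes with at least 1 FPKM in 3 libraries. Of the 70 members 65 were tested, and 63 were called higher (adjusted p below 0.05) in total RNA, where 31% of all genes tested were. Lower was 1, Hist3h2a, where 40.9% of all genes were. The median log2 difference was 6.19 for members and -0.12 for all genes. Libraries of both kinds did not overlap, with total RNA higher, for 57 members, against 8.48% of all genes tested. For 24 of the tested members no poly(A)-primed library of the table reached 1 FPKM, so these passed the filter through total RNA alone and could only be higher. Of the other 41, 39 were higher and 1 lower. All tested H1 (6), H2B (17), H3 (11) and H4 (13) genes were higher in total RNA, and 16 of 18 H2A genes were. These family counts include the 24 members whose direction was fixed by the filter.

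Several of the highest members in total RNA, among them the top 3, were nearly absent from the poly(A)-primed libraries. Hist1h2bn, an H2B gene on chromosome 13 (21754123-21754503, +), stood at 1354, 1635 and 1762 FPKM in BMC and 1491, 1824 and 2158 FPKM in Lin-. It stood at 0, 0.948 and 0 FPKM in LSK, 2.15, 0 and 1.45 FPKM in Bone EC and 0, 0 and 0.681 FPKM in Irradiated bone EC. Its groups of libraries lie apart by a mean of 1704 against 0.581 FPKM, a log2 difference of 10.20 ± 0.25 (SE, limma adjusted p = 7.2e-13). The H4 gene Hist1h4k (21750194-21750505, -) was next, at 1428, 1508 and 1549 FPKM in BMC, 1471, 1798 and 1865 FPKM in Lin- and at most 2.32 FPKM in LSK, with a log2 difference of 9.80 ± 0.22 (limma adjusted p = 4e-13). Hist1h2bl, another H2B gene, was at 530, 593 and 644 FPKM in BMC and 712, 818 and 969 FPKM in Lin- and was listed at 0 in all 9 poly(A)-primed libraries of the table. The H1 gene Hist1h1a, a linker histone of dividing cells, was at 865, 999 and 1145 FPKM in BMC and 1285, 1589 and 1730 FPKM in Lin-, against a mean of 1.59 FPKM in the poly(A)-primed groups (log2 difference 9.10 ± 0.15, limma adjusted p = 1.9e-14). Hist1h3f, whose stem-loop is shown above, was at 592, 687 and 678 FPKM in BMC and 742, 888 and 859 FPKM in Lin-, against a mean of 0.35 FPKM (9.18 ± 0.21, limma adjusted p = 4e-13).

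At the other end stood members whose means differed little between the kinds of library. Hist1h2ap (H2A, chromosome 13, 21833026-21833507, -) was at 27.5, 27.8 and 30.8 FPKM in BMC, 37, 55.9 and 29.5 FPKM in Lin- and 42.9, 27.8 and 50 FPKM in LSK. Bone EC, at 77.4, 117 and 86 FPKM, lay above the total RNA libraries and Irradiated bone EC, at 14.3, 3.59 and 4 FPKM, below them. It is the only tested member with no call here. Its mean was 34.7 FPKM in total RNA against 47 FPKM, while the difference of log2 values had the other sign (0.22 ± 0.25, limma adjusted p = 0.45). Hist3h2a, the H2A gene of the cluster on chromosome 11 (58954685-58956830, +), was at 3.59, 5.05 and 6.09 FPKM in BMC and 3.75, 5.12 and 6.83 FPKM in Lin-. In LSK it was at 11, 7.08 and 9.52 FPKM, in Bone EC at 9.48, 9.04 and 6.23 FPKM and in Irradiated bone EC at 3.48, 3.74 and 4.17 FPKM, so total RNA libraries lay below LSK and overlapped the endothelial groups. It was lower in total RNA by a log2 difference of -0.35 ± 0.14 (limma adjusted p = 0.042), a call that was lost without a filter on low values, with the replicate number as a block, with voom on the recovered reads and without 10 of the 15 libraries in turn. The H2B genes Hist1h2bc (log2 difference 0.63 ± 0.13, limma adjusted p = 0.00078) and Hist2h2be (0.66 ± 0.17, limma adjusted p = 0.0031) were higher in total RNA by far less than the median member. Over the 24 members with a mean of at least 1 FPKM in the poly(A)-primed groups, the ratio of total RNA to poly(A)-primed means ran from 0.716 to 797, with a median of 35.1.

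**Figure D2:**
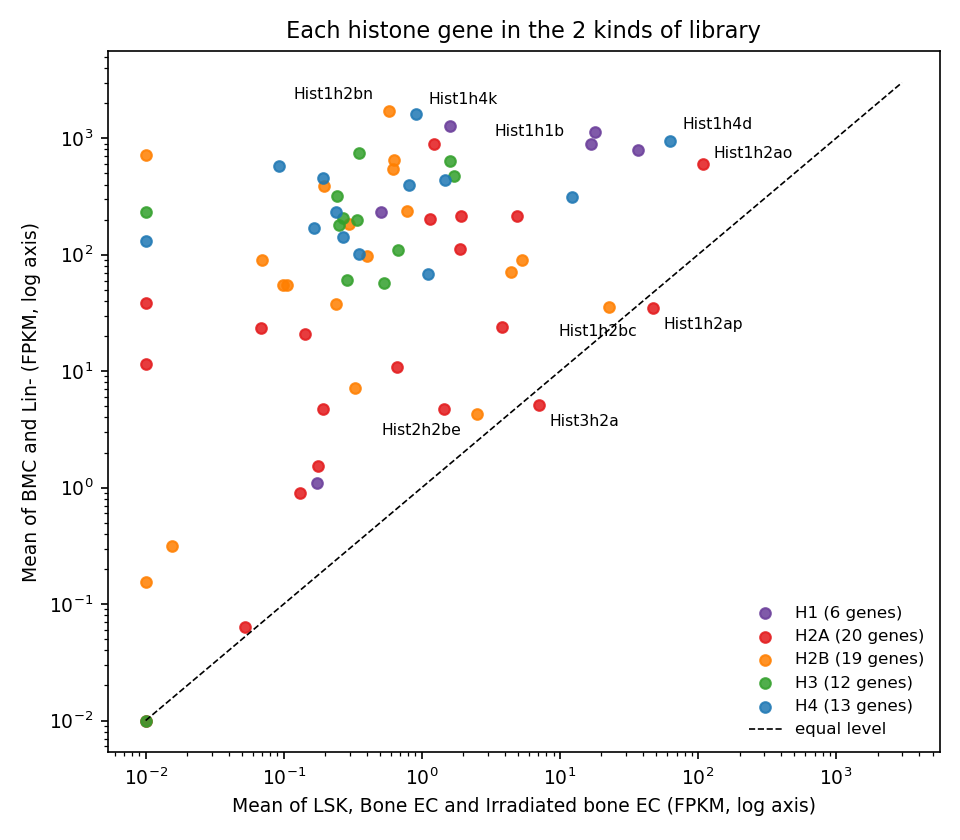
Each of the 70 genes by its mean FPKM in LSK, Bone EC and Irradiated bone EC (x, log axis) and in BMC and Lin- (y, log axis), coloured by family, with a dashed line at equal level and points at 0.01 for means listed at 0. Hist1h2ap and Hist3h2a lie to the right of the line, at 34.7 against 47 FPKM and 5.07 against 7.08 FPKM.

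RNAs that carry no poly(A) tail served as a side measure of the kits. Of 13 listed genes of this kind (Rn7sk, Rmrp, Terc and others) 11 were found and 10 tested, and 9 of these were higher in total RNA, with a median log2 difference of 5.76. Rn7sk, the scaffold RNA of a transcription regulator, was at 50166, 50293 and 41366 FPKM in BMC. The members' median of 6.19 stands beside this value, and how much of either difference comes from the kit was not tested. S phase and division genes, which carry poly(A) tails, were also higher in total RNA for 23 of 26 (1 lower), with a median log2 difference of 1.22. Of the other lists 9 of 11 chaperone, 8 of 13 processing and 5 of 7 decay genes were higher with 1 lower each, and 3 of 11 variant histones were higher and 4 lower. After rescaling to TPM the counts were 4 higher and 5 lower for chaperones, 5 and 5 for processing and 2 and 2 for decay, and 61 members and 20 S phase genes were still higher.

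The order of the genes differed between the kinds of library as well as their level. In BMC 9 members and in Lin- 10 made up most of the summed histone FPKM, against 2 to 3 members in each poly(A)-primed group, counting from the highest until more than 50% was reached. H3 genes made up 15.4% of the sum in BMC and 15.9% in Lin- and between 0.545 and 2.11% in the poly(A)-primed groups. H2A genes made up 11.7% in BMC and 11.9% in Lin-, against 38.9% in LSK, 54.8% in Bone EC, 72.7% in Esm1+ EC, 70.6% in Vav1 control EC and 74.5% in Vav1 DTX EC. Across 69 members the rank correlation of the mean level in total RNA and in poly(A)-primed groups was 0.42, given as a description, since genes of this family share sequence and are not independent.

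**Figure D3:**
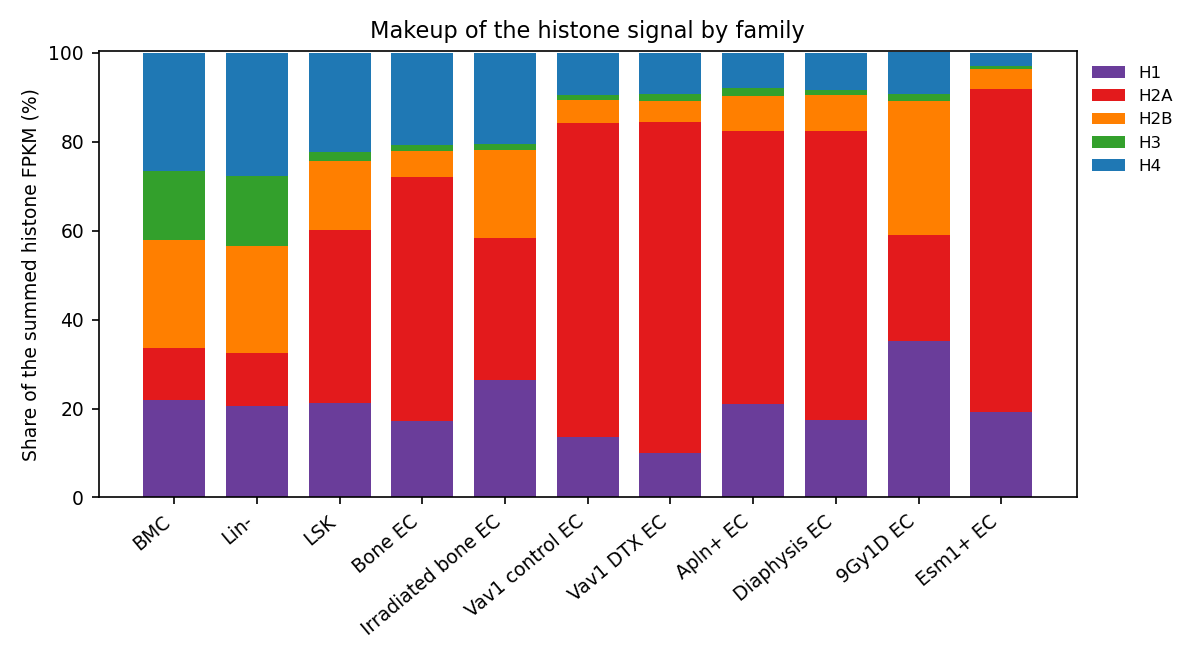
Share of the summed histone FPKM (%) held by the H1, H2A, H2B, H3 and H4 genes in each group, from the means of 3 libraries. H2A genes hold 11.7 and 11.9% in the total RNA groups BMC and Lin- and 23.9 to 74.5% in the poly(A)-primed groups.

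Only 6 members reached 1 FPKM in all 27 poly(A)-primed libraries, namely Hist1h1c, Hist1h1e, Hist1h2ao, Hist1h2ap, Hist1h2bc and Hist1h4i. In total RNA, 62 members reached it in all 6 libraries. Below 1 FPKM in all 27 poly(A)-primed libraries were 19 members, of which 12 reached 1 FPKM in all 6 total RNA libraries. Hist2h3c1, an H3 gene, was listed at 0 in all 33 libraries. An AATAAA polyadenylation signal downstream of the stem-loop, searched in the annotated transcripts alone, was found in 12 of the 42 members with a stem-loop. These 12 had a median ratio of total RNA to poly(A)-primed level of 21.7, against 161 for the 30 without it, a description with no test. Members with a poly(A)-primed mean of 0 in the table have no ratio and are left out of these medians. The median level over all poly(A)-primed groups was alike, at 0.68 FPKM with the signal and 0.636 FPKM without it. In total RNA the medians were 46 and 182 FPKM. Only 17 of the 42 models run at least 200 bases past the stem-loop, so a signal beyond the model would not be seen.

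Of the members seen in every poly(A)-primed library, Hist1h1c, Hist1h1e, Hist1h4i and Hist1h2ao also had high total RNA levels, and Hist1h2ap and Hist1h2bc did not. Hist1h1c (chromosome 13, 23738808-23740367, +), a linker histone gene, was at 707, 801 and 858 FPKM in BMC and 556, 829 and 1029 FPKM in Lin-, 21.7 times its poly(A)-primed mean of the table. Over the 27 poly(A)-primed libraries it was at 12.8 FPKM or more. Hist1h1e was at 1112, 1268 and 1280 FPKM in BMC and 858, 1095 and 1198 FPKM in Lin-, 62.8 times. The H4 gene Hist1h4i (22040636-22041362, -) was at 239, 270 and 264 FPKM in BMC and 298, 433 and 380 FPKM in Lin-, 25.8 times. Hist1h4d, below 1 FPKM in 2 of the 27 libraries, was at 724, 791 and 829 FPKM in BMC and 881, 1264 and 1161 FPKM in Lin-, 15 times. By contrast Hist1h2bc was at 21.6, 24.3 and 32.1 FPKM in BMC and 29.1, 24.5 and 38.6 FPKM in LSK. The order of the members by level thus differed between the kinds of library.

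Hist1h2ao (H2A, chromosome 13, 21810465-21810944, +) was the highest member by the mean over the poly(A)-primed groups, though not in Irradiated bone EC and 9Gy1D EC, where Hist1h1c was, and has the same coding sequence as Hist1h2ap. It was at 445, 576 and 572 FPKM in BMC, 591, 870 and 527 FPKM in Lin- and 82.8, 83.6 and 87.5 FPKM in LSK. The ratio of Hist1h2ao to Hist1h2ap was 16.2, 20.7 and 18.6 in BMC and 16, 15.6 and 17.9 in Lin-. In the 27 poly(A)-primed libraries it ran from 1.32 to 3.86 with a median of 2.22, without overlap with total RNA. In GENCODE vM21 the model of Hist1h2ao goes on for 31 bases after the stem-loop and that of Hist1h2ap for 3. The model length recovered from the values was 480 bases for Hist1h2ao and 519 for Hist1h2ap, so the models counted can differ from that annotation. Reads within the shared coding sequence cannot be assigned to either gene with certainty, and how the authors' counting treated them is not given in the sources used here.

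Lin- cells, from which mature blood cells had been depleted, were compared with whole marrow within the total RNA libraries. Of 65 members tested 23 were higher in Lin- and 0 lower (limma, adjusted p below 0.05; 1 lower at an unadjusted p under 0.05 and 0 with voom), against 29.1% and 28.4% of all genes tested, so that the share of members higher is near that of all genes and the share lower is not. The median log2 difference was 0.35 for members and 0.03 for all genes. Higher genes came from every family, with 7 of 18 H2A, 7 of 13 H4, 5 of 17 H2B, 3 of 11 H3 and 1 of 6 H1 genes tested. The count rested on few libraries: it was 7, 9 and 13 without BMC replicate 1, 2 or 3, and 10 without Lin- replicate 2. Without the Lin- library rich in erythroid transcripts, replicate 3, 2 members were lower.

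The members with the largest rise in Lin- were H2A genes of low level. Hist1h2aj, annotated as a pseudogene, was at 4.76, 8.46 and 4.97 FPKM in BMC and 12.1, 16.5 and 18.4 FPKM in Lin-. The groups did not overlap, and the rise was 2.58-fold (log2 difference 1.26 ± 0.24, limma adjusted p = 0.0045). Hist1h2ag rose 2.38-fold, from 9.3, 11.6 and 16.3 FPKM to 22.1, 38.1 and 28.4 FPKM, and Hist1h2ae 2.28-fold, from 11.1, 14.9 and 17.8 FPKM to 23.9, 41.4 and 34.3 FPKM (limma adjusted p = 0.0074 for each). The H4 gene Hist1h4b went from 63.4, 70.3 and 69.3 FPKM to 104, 161 and 141 FPKM (0.97 ± 0.18, limma adjusted p = 0.0038). Hist1h2bf, an H2B gene, went from 28, 37.9 and 43.4 FPKM to 56.6, 100 and 63.1 FPKM (0.97 ± 0.26, limma adjusted p = 0.017). Of 26 S phase and division genes 12 were higher in Lin- and 1 lower, and of 13 processing genes 6 were higher. Cell type markers moved as well, with 8 of 8 neutrophil precursor and 9 of 9 B cell precursor genes lower in Lin- and 5 of 7 stem and progenitor genes higher, and their part in the histone values was not tested.

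Between LSK and Lin- the kit changes with the cells, so the stem and progenitor fraction cannot be set apart from the library type. Of 62 members tested, 57 were lower in LSK and 1 higher (limma), against 25.5% and 33.4% of all genes, with a median log2 difference of -6.66 against 0.07. Of the 62, 30 had no LSK library at 1 FPKM and passed the filter through Lin- alone, so that they could only be lower. Of the other 32, 27 were lower. The 1 higher was Hist3h2a (log2 difference 0.72 ± 0.24, limma adjusted p = 0.034), which had no call without a filter, with median-of-ratios scaling or with the replicate number as a block, nor without Lin- replicate 1 or 2 or LSK replicate 1 or 3. Hist1h2bn was lowest relative to Lin- (-10.50 ± 0.29, limma adjusted p = 9.6e-07), and Hist1h4k followed (-9.74 ± 0.41, limma adjusted p = 4.6e-06). Hist1h2ao was lower by -2.92 ± 0.22 (limma adjusted p = 4.9e-05), while Hist1h2ap was at a mean of 40.3 FPKM in LSK and 40.8 FPKM in Lin-. Of the side lists, the RNAs without a poly(A) tail were lower in LSK for 8 of 10 tested and the S phase genes for 17 of 26, which became 7 lower and 4 higher under TPM scaling. Without any 1 Lin- library 27 of 32 tested members were lower, because fewer members then reached 1 FPKM in 3 libraries.

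Bone endothelial cells and LSK cells share the poly(A)-primed kit and the table. Of 24 members tested, 10 were higher in Bone EC and 4 lower (limma), against 29.5% and 30.6% of all genes, with a median log2 difference of 0.61 against -0.05. Of the 24, 2 reached 1 FPKM in 1 group alone, so that their direction was fixed, and 1 was higher and 1 lower. Of the other 22, 9 were higher and 3 lower. Among H2A genes 6 of 10 were higher and 1 lower, and among H2B genes 0 of 4 were higher and 2 lower. After rescaling to TPM, which moved the median of all genes to -0.91 and let 41 members through the filter, 4 members were higher and 11 lower. Of the same 24 members 3 were then higher and 9 lower, with a median of 0.09, while median-of-ratios scaling gave 10 higher and 3 lower. Without Bone EC replicate 2, 6 were higher, and without LSK replicate 1, 2 or 3, 2 were lower.

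Hist1h2ao was at 169, 268 and 243 FPKM in Bone EC, above all 3 LSK libraries (82.8 to 87.5 FPKM), a 2.68-fold difference (log2 1.38 ± 0.18, limma adjusted p = 0.00031). The linker histone gene Hist1h1e (chromosome 13, 23620629-23622558, -) was at 33.3, 46.8 and 32.4 FPKM in Bone EC and 8.76, 13.5 and 10.5 FPKM in LSK (1.69 ± 0.20, limma adjusted p = 0.00018). In GENCODE vM21 its exons overlap Hist1h2be on the same strand, though the model length recovered from the values was 748 bases, shorter than that span. Hist1h2ab, an H2A gene, was higher by 2.04 ± 0.28 (limma adjusted p = 0.00046), at 3.78, 5.17 and 6.54 FPKM in Bone EC and at most 0.863 FPKM in LSK. It passed the filter through Bone EC alone and could only be higher. Hist1h1b, a linker histone gene (chromosome 13, 21779883-21780625, -), was higher by 1.31 ± 0.25 (limma adjusted p = 0.0023) and Hist1h2ap by 1.21 ± 0.24 (limma adjusted p = 0.0026), and these calls were lost under TPM scaling. In the other direction, the H2B gene Hist1h2bg, whose promoter is printed above, was at 10.6, 18.7 and 14 FPKM in LSK and 1.77, 0.529 and 1.34 FPKM in Bone EC. That is an 11.9-fold difference without overlap (-2.81 ± 0.27). Hist1h1c, the linker histone gene with the highest poly(A)-primed level, was at 48.4, 61.4 and 57.3 FPKM in LSK and 39.1, 41.9 and 30 FPKM in Bone EC (-0.58 ± 0.16, limma adjusted p = 0.013). Beside these values, all 10 erythroid and all 8 neutrophil precursor markers were higher in Bone EC than in LSK, as were all 10 pan-endothelial markers; the part of blood cell transcripts in the histone values was not tested. S phase genes were split, with 9 higher and 10 lower of 26 (3 and 13 under TPM).

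Histone genes fell together after irradiation. The summed level went from 525, 807 and 652 FPKM in Bone EC to 129, 83.3 and 67.5 FPKM in Irradiated bone EC, and as a share of all FPKM the mean in Bone EC was 5.97 times that after irradiation. Of 21 members tested, 20 fell and 0 rose (limma; also 0 at an unadjusted p under 0.05 and 0 with voom), against 19.4% and 22.5% of all genes tested, and the median log2 difference was -1.93 against 0.06. All tested H1 (4), H2A (9), H2B (3) and H3 (2) genes fell, as did 2 of 3 H4 genes. The 1 with no call was the H4 gene Hist4h4, at a mean of 1.2 FPKM against 0.812 FPKM (0.29 ± 0.18, limma adjusted p = 0.24). Of the 21, 10 had no irradiated library at 1 FPKM and passed the filter through Bone EC alone, so that they could only fall. Of the 11 seen in both groups 10 fell. The remaining 49 members did not pass the filter. Because the filter asks for 3 libraries at 1 FPKM, leaving out any Bone EC library left 11 members, of which 9 to 10 fell.

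Hist1h1b fell from 25, 47.5 and 33.8 FPKM to 1.73, 0.836 and 1.05 FPKM, which is 29.5-fold (log2 difference -4.02 ± 0.26, limma adjusted p = 0.00019). Hist1h2ao fell from 169, 268 and 243 FPKM to 30.4, 7.76 and 10.3 FPKM (-3.94 ± 0.46, limma adjusted p = 0.00073), and Hist1h2ap from 77.4, 117 and 86 FPKM to 14.3, 3.59 and 4 FPKM (-3.72 ± 0.45, limma adjusted p = 0.00084). In both genes Irradiated bone EC replicate 1 was the highest of its group and still lay below every Bone EC library. The H4 gene Hist1h4d (chromosome 13, 23581598-23582735, +) fell from 90.4, 145 and 109 FPKM to 17.6, 11.9 and 4.62 FPKM (-3.37 ± 0.42, limma adjusted p = 0.00096). Hist1h2ab, at 3.78, 5.17 and 6.54 FPKM before, was listed at 0 in all 3 irradiated libraries (limma adjusted p = 0.00025). Hist1h1e fell 6.45-fold, from 33.3, 46.8 and 32.4 FPKM to 9.6, 3.32 and 4.51 FPKM (-2.59 ± 0.33, limma adjusted p = 0.0011).

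The fall was smaller in Hist1h2bc, Hist3h2a and Hist1h1c. Hist1h2bc (H2B, chromosome 13, 23684199-23692908, +) went from 19.3, 23.1 and 22.5 FPKM to 15.3, 16.5 and 13.4 FPKM, 1.44-fold (-0.50 ± 0.14, limma adjusted p = 0.026). Hist3h2a went from 9.48, 9.04 and 6.23 FPKM to 3.48, 3.74 and 4.17 FPKM (-0.93 ± 0.18, limma adjusted p = 0.0061). Hist1h1c went from 39.1, 41.9 and 30 FPKM to 17.6, 21.3 and 12.8 FPKM, 2.15-fold (-1.07 ± 0.21, limma adjusted p = 0.0066). In each of the 3 genes the groups did not overlap. Whether these falls differ from those of the other members was not tested.

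Other genes of histone supply moved in the same comparison. Of 26 S phase and division genes 25 fell, among them Rrm2, a subunit of ribonucleotide reductase (-2.80), Ccna2, cyclin A2 (-2.93), and Mki67, a marker of dividing cells (-2.90). Of 11 histone chaperone genes 7 fell (5 under TPM), the largest fall being in Asf1b (-2.60), which hands H3 and H4 to chromatin assembly. Of 11 replication-independent variant histone genes 7 fell (7 with 2 rising under TPM), including H2afz (-1.98, limma adjusted p = 0.0022) and H2afx (-2.35, limma adjusted p = 0.00067). Of 13 tested genes of histone mRNA processing 4 fell (1 under TPM), among them Slbp, which encodes the stem-loop binding protein, from a mean of 41.6 to 26.2 FPKM (-0.65 ± 0.12, limma adjusted p = 0.0042). Of 7 genes of histone mRNA decay 1 rose (Exosc10, 0.62) and 1 fell (Eri1, a nuclease of the histone stem-loop, -0.69). Cell type markers moved too: all 10 erythroid, 8 neutrophil precursor and 9 B cell precursor genes fell and all 10 pan-endothelial genes rose. Of 7 tested monocyte and macrophage genes 4 fell and 1 rose, and of 6 stem and progenitor genes 3 fell and 1 rose. Erythroid genes went from 9.3 to 10.3% of summed FPKM to 0.123 to 0.276%, and pan-endothelial genes from 0.345 to 0.422% to 1.05 to 1.57%. The part of these cells in the histone values was not tested in this comparison.

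Vav1 DTX EC and Vav1 control EC showed no such common fall. Of 34 members tested, 8 were lower and 2 higher in DTX (limma), against 15% and 11.3% of all genes, with a median log2 difference of -0.27 against 0.03. Of the 34, 1 (Hist1h2ab) had no DTX library at 1 FPKM and passed the filter through the control alone, so that it could only be lower. Of the other 33, 7 were lower and 2 higher. After rescaling to TPM, 45 members passed the filter, of which 6 were lower and 4 higher. Their median was then 0.05 against 0.24 for all genes. Of the same 34 members 6 were lower and 3 higher under TPM, with a median of -0.11. Leaving out Vav1 control EC replicate 1, 2 or 3 gave 4, 3 and 3 lower, and leaving out Vav1 DTX EC replicate 2 gave 4 higher. The 4 members with the largest fall after irradiation, Hist1h1b, Hist1h2ao, Hist1h2ap and Hist1h4d, had no call here. Hist1h2ao was at 412, 586 and 419 FPKM in the control and 518, 245 and 432 FPKM in DTX (-0.30 ± 0.29, limma adjusted p = 0.49). Hist1h1b was at 15.6, 26 and 16.2 FPKM and 21.8, 5.32 and 14.2 FPKM (-0.61 ± 0.46, limma adjusted p = 0.36). In both genes the lowest library was DTX replicate 2, and the groups overlapped.

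The members lower in DTX included genes of the small clusters. Hist3h2ba, the H2B gene of the chromosome 11 cluster (58948920-58949533, +), went from 5.35, 7.27 and 8.74 FPKM to 0.744, 3.1 and 1.1 FPKM (-1.70 ± 0.33, limma adjusted p = 0.011). Its neighbour Hist3h2a went from 12.3, 12.3 and 11.5 FPKM to 2.6, 5.63 and 5.89 FPKM (-1.25 ± 0.26, limma adjusted p = 0.012). Hist2h2be (H2B, chromosome 3, 96221119-96223738, +) went from 3.24, 3.18 and 3.55 FPKM to 1.03, 0.663 and 1.01 FPKM (-1.19 ± 0.14, limma adjusted p = 0.0015). None of these 3 genes had overlapping groups. Hist1h1c went from 93, 80.5 and 106 FPKM to 50.4, 45.1 and 56.6 FPKM (-0.86 ± 0.15, limma adjusted p = 0.0063), Hist1h1e was lower by -0.78 ± 0.20 (limma adjusted p = 0.027) and Hist1h2bc by -0.43 ± 0.11 (limma adjusted p = 0.028). The Hist1h1e call was lost without a filter, under TPM and with the replicate block, and the Hist1h2bc call under TPM, with the replicate block, with voom and without any 1 control library or DTX replicate 1 or 3. The 2 higher members, Hist1h4h (1.51 ± 0.23, limma adjusted p = 0.004) and Hist1h4c (1.06 ± 0.17, limma adjusted p = 0.0047), are H4 genes of low level and are named after their values were seen. Beside these values, all 10 erythroid markers were lower, going from 8.35 to 14.1% of summed FPKM to 0.381 to 0.707%, and all 8 tested B cell precursor markers and 6 of 7 monocyte and macrophage markers were lower. The part of these cells in the DTX values was not tested. Neutrophil precursor markers were not (2 of 8 higher), and 1 of 26 S phase genes, Gins2 (0.65), was higher with 0 lower. Among the variant histones H1f0, a linker histone of non-dividing cells, was higher (0.92 ± 0.11, limma adjusted p = 0.0013) and H2afx, H2afv and H3f3a were lower. Genes of histone mRNA processing (13 tested, 1 lower at an unadjusted p under 0.05) and chaperones (11 tested, 3 higher at an unadjusted p) had no call with limma or voom. Under TPM 4 chaperones and 1 processing gene were higher, and Slbp was at a mean of 67 FPKM in both groups.

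The irradiation and DTX differences were set against each other in a single fit with an interaction term. Of 37 members tested, 13 had a more negative difference with irradiation and 0 a more positive one (limma; also 0 at an unadjusted p under 0.05 and 0 with voom), against 13.1% and 13.7% of all genes. The median was -0.98 for members and 0.06 for all genes. The largest was in Hist1h2ao, at -3.64, followed by Hist1h2ap at -3.44 and Hist1h1b at -3.42. The 13 came from the H1 (3 of 4 tested), H2A (7 of 11), H3 (1 of 4) and H4 (2 of 9) genes, and none of the 9 tested H2B genes was called. All 20 members lower with irradiation were tested in DTX, and 7 of them (Hist1h1c, Hist1h1e, Hist1h2ab, Hist1h2bc, Hist2h2be, Hist3h2a and Hist3h2ba) were lower there, where 15% of all genes tested were. The share among all genes lower with irradiation is not given here. Hist1h2ab passed the filter through the higher group alone in both comparisons, so that it could only be lower. The 2 comparisons come from tables that were normalized separately and differ in genotype, so the interaction sets differences formed within tables against each other.

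**Figure D4:**
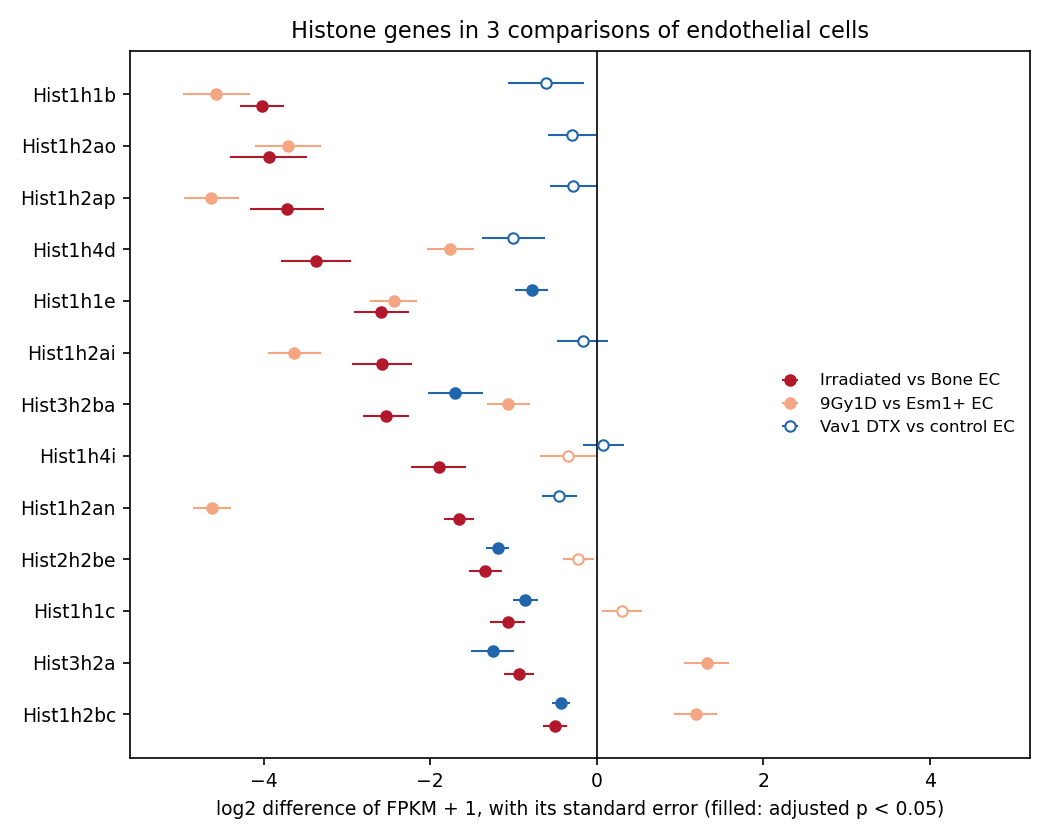
The log2 difference of FPKM + 1 with its standard error (x) of 13 members (y) in 3 comparisons of endothelial cells; filled points have a limma adjusted p below 0.05. Hist1h1b, Hist1h2ao and Hist1h2ap lie between -3.71 and -4.63 in both comparisons that involve irradiated cells, and between -0.28 and -0.61 in Vav1 DTX against control.

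9Gy1D EC were compared with Esm1+ EC, from which they differ in irradiation, mouse line, tamoxifen and the cells sorted, and these cannot be told apart. Of 20 members tested, 13 were lower in 9Gy1D EC and 2 higher (limma), against 23.1% and 20.6% of all genes, with a median log2 difference of -1.43 against 0.00. Of the 20, 6 had no 9Gy1D library at 1 FPKM and passed the filter through Esm1+ EC alone, and of the other 14, 7 were lower. With Esm1+ EC replicates 1 and 2 averaged, 6 of 14 tested were lower, and leaving out any Esm1+ EC library also gave 6 of 14. Of the 13, 11 were also lower in Irradiated bone EC (11 of its 20), where 19.4% of all genes tested were lower. The share of all genes lower in both comparisons is not given here. Some of the 11, such as Hist1h2an, passed the filter through the unirradiated group alone in both comparisons, so that they could only be lower. Hist1h2ap was at 87.3, 95.4 and 154 FPKM in Esm1+ EC and at most 5.96 FPKM in 9Gy1D EC, a 30.3-fold difference (-4.63 ± 0.33, limma adjusted p = 0.00012). Hist1h1b was at 36.3, 35.5 and 61.7 FPKM and 1.62, 1.44 and 0 FPKM (-4.57 ± 0.40, limma adjusted p = 0.00026). Hist1h2ao was at 115, 150 and 238 FPKM and 21.1, 7.98 and 8.46 FPKM (-3.71 ± 0.40, limma adjusted p = 0.00057). In each of these 3 genes every 9Gy1D library lay below every Esm1+ library, which the rule for naming them requires.

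Hist1h2bc, Hist3h2a and Hist1h1c, with smaller falls in Irradiated bone EC, were higher or not called here. Hist1h2bc was at 31.3, 19.2 and 20.3 FPKM in 9Gy1D EC and 9.51, 6.92 and 13.1 FPKM in Esm1+ EC, 2.4-fold higher (1.19 ± 0.26, limma adjusted p = 0.01). Hist3h2a was at 6.22, 3.85 and 4.32 FPKM and 0.862, 0.985 and 2.21 FPKM (1.32 ± 0.27, limma adjusted p = 0.0069). Hist1h1c was at 41.5, 22.2 and 25.5 FPKM and 25, 24.9 and 19.7 FPKM (0.30 ± 0.24, limma adjusted p = 0.34). S phase genes were lower for 25 of 26, chaperones for 7 of 11 with Atrx higher (0.68), variant histones for 7 of 10 and processing genes for 6 of 13, Slbp among them (-0.94 ± 0.13, limma adjusted p = 0.0015). Of the decay genes 2 of 6, Eri1 and Exosc10, were lower, with a median over the 6 of 0.22, and under TPM 1 was lower and 2 higher. Of the markers, 7 of 10 erythroid, 6 of 8 neutrophil precursor and 7 of 8 B cell precursor genes were lower and 9 of 10 pan-endothelial genes were higher. Erythroid genes stood at 5.1 to 6.65% of summed FPKM in 9Gy1D EC against 8.05 to 9.54% in Esm1+ EC, and pan-endothelial genes at 0.846 to 1.29% against 0.209 to 0.395%. Their part in the histone values was not tested.

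Apln+ EC were compared with Diaphysis EC of the same table. Of 27 members tested, 3 were higher and 3 lower in Apln+ EC (limma), against 2.84% and 4.64% of all genes. The median log2 difference was -0.37 against 0.04. Of the 27, 2 (Hist1h2al and Hist1h4k) had no Diaphysis EC library at 1 FPKM and passed the filter through Apln+ EC alone. These could only be higher. Of the other 25, 1 was higher and 3 lower. Without Apln+ EC replicate 1, which had the lowest share of pan-endothelial transcripts in its group, 5 were lower. Without any 1 of the other 5 libraries 1 was lower, and without any 1 Apln+ EC library 1 was higher, so the counts rest on single libraries. The largest difference was in the pseudogene Hist1h2al (chromosome 13, 51202727-51203065, -), which lies outside the main Hist1 cluster. It was at 22.3, 18.7 and 21.3 FPKM in Apln+ EC and 0, 0 and 0.246 FPKM in Diaphysis EC (4.34 ± 0.16, limma adjusted p = 0.00015). Hist1h2an, an H2A gene (21786826-21787218, -), was at 21.8, 27.3 and 35.2 FPKM against 1.84, 2.45 and 3.31 FPKM, an 11.1-fold difference (3.04 ± 0.24, limma adjusted p = 0.0015). Both genes were high again in Esm1+ EC, where Hist1h2al was at 16.3, 16.9 and 8.01 FPKM and Hist1h2an at 17.8, 22.9 and 31.9 FPKM. Hist1h2an was at most 4.09 FPKM in every other poly(A)-primed library, and Hist1h2al at most 0.865 FPKM. Apln+ EC and Esm1+ EC share the R26-mTmG reporter and tamoxifen, which the other groups do not carry, so the cells sorted cannot be told apart from the mouse line and agent. The third higher member, Hist1h4k (1.09, limma adjusted p = 0.041), was at a mean of 1.73 FPKM against 0.292 FPKM and is named after its values were seen.

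Lower in Apln+ EC were Hist3h2a, at 4.77, 4.52 and 5.08 FPKM against 13.2, 12.2 and 15.4 FPKM (-1.33 ± 0.15, limma adjusted p = 0.0044), and Hist2h2be (-1.37 ± 0.24, limma adjusted p = 0.021). Hist1h2ao was at 120, 124 and 157 FPKM against 235, 215 and 280 FPKM (-0.86 ± 0.18, limma adjusted p = 0.041), a call lost without a filter and with the replicate block. In these genes the groups did not overlap. The chaperone, processing and variant histone lists had no call in this comparison with limma or voom and no gene at an unadjusted p under 0.05, and the S phase list had no call and 1 gene at an unadjusted p. Of 7 decay genes 1 was lower, Upf1, an RNA helicase of mRNA decay (-0.92 ± 0.19, limma adjusted p = 0.035). Erythroid, neutrophil precursor, B cell precursor and pan-endothelial markers had no call either, while 4 of 7 monocyte and macrophage markers were lower in Apln+ EC and 1 of 5 stem and progenitor markers, Cd34, was higher (4.06).

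**Figure D5:**
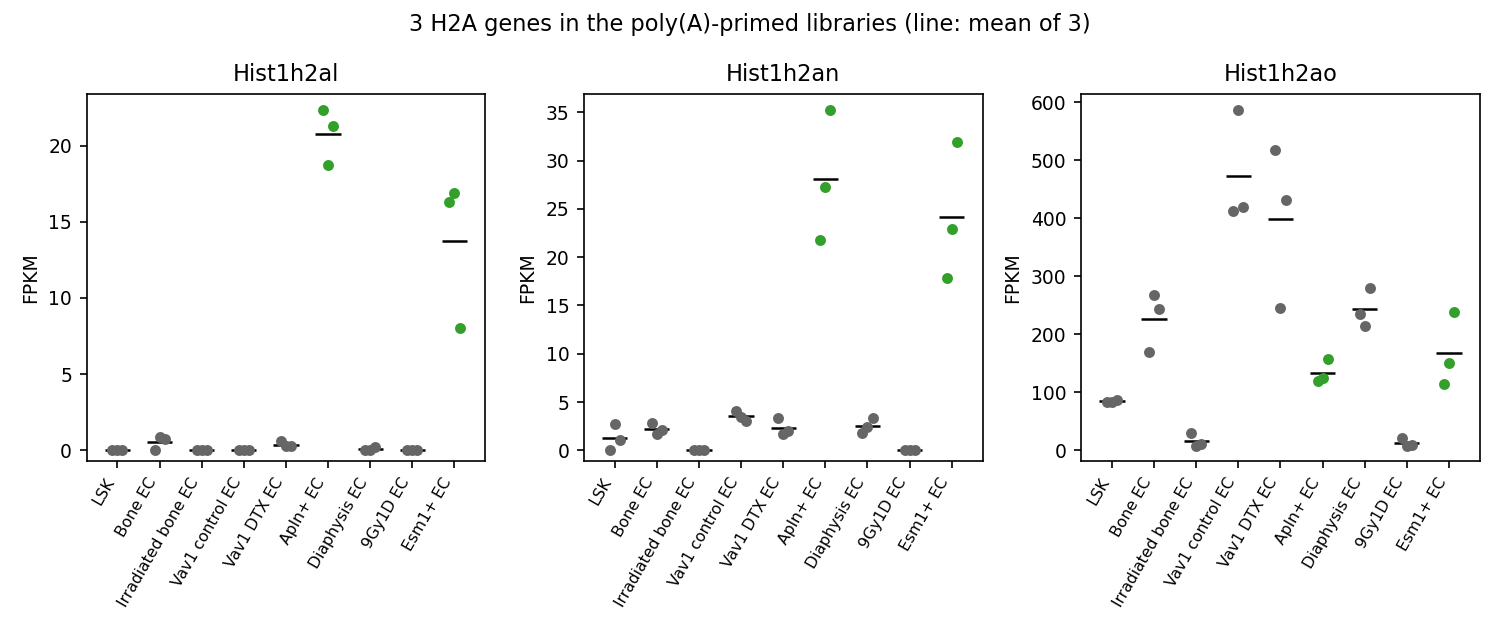
FPKM of Hist1h2al, Hist1h2an and Hist1h2ao in each poly(A)-primed library by group, with points for libraries, a line at the mean of 3 and green for groups with the R26-mTmG reporter. Hist1h2al reaches 8.01 to 22.3 FPKM in Apln+ EC and Esm1+ EC and at most 0.865 FPKM elsewhere, while Hist1h2ao is lowest in the irradiated groups.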

How the data were processed

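The 33 RNA sequencing libraries were deposited by the authors as FPKM per gene in 4 separate tables. The submitters' processing notes give mm10 as a build and, with no role stated, the tools DESeq2 1.18.1, HTSeq 0.6.1, TopHat2 2.1.1 and bcl2fastq 2.19.1.403. Per the labels' protocols, BMC and Lin- were prepared with TruSeq Stranded Total RNA and the other groups with SMART-Seq v4 and Nextera XT. How reads of paralogs and overlapping genes were counted, and whether strand was used, is not given in the sources used here.

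Each table has 38926 rows; 27 names damaged to dates were left out, and 0 value columns had no sample. Whole reads were recovered by dividing the values by the worth of 1 read and multiplying by gene length (tolerance 0.005). The annotated length gave them for 18268 genes. For the other 14090 genes above 0 the length was the one found to give whole reads, so the 100% recovered is no check of these. Recovered reads were 0.677 to 1.178 times the library size implied by the worth of 1 read. Values were used as log2(FPKM + 1), and a gene entered a comparison when 3 or more of its libraries had 1 FPKM or more. Tests were made with limma 3.58.1 under R 4.3.3, with the trend option of eBayes, two-sided, with Benjamini-Hochberg adjustment over all genes tested and calls below 0.05. The difference of the irradiation and DTX contrasts was an interaction term over their 12 libraries. The fits were tested on simulated data. Tables were read with data.table (1.17.8), and summaries and figures made with Python 3.11.15, pandas 2.3.3, numpy 2.4.6 and matplotlib 3.10.9.

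Stem-loops, AATAAA signals and runs of A were searched in GENCODE vM21 transcripts (GRCm38), and promoters came from RefSeq (GRCm38.p6); 69 members matched a RefSeq symbol and 61 a promoter. Alternatives were a pseudocount of 0.1, no filter, median-of-ratios scaling, TPM, the replicate block, voom on the reads and leaving out each library.

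The genes, the lists (variant histones, histone mRNA processing, histone mRNA decay, chaperones, S phase and division, RNAs without a poly(A) tail, and the pan-endothelial, erythroid, neutrophil precursor, B cell precursor, monocyte and macrophage, and stem and progenitor markers) and the comparisons were chosen with earlier results of these data known. Named genes are the 10 members highest in poly(A)-primed groups, the 5 highest in total RNA, those at 1 FPKM in all 27 poly(A)-primed libraries, up to 5 called members a direction with the largest difference, no overlap and a mean of at least 5 FPKM, and up to 3 called genes of a list; others are named as chosen after their values were seen or as examples of a count. For members named by the largest difference, the lack of overlap is part of the choice and not a separate result.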

Additional observations from a re-analysis of the deposited data

Results flagged for a closer look

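The difference after irradiation and the difference between Vav1 DTX EC and Vav1 control EC were unlike in 13 members by the interaction term of a limma fit over both pairs of groups (adjusted p below 0.05). The value is the irradiation difference minus the DTX difference on the log2(FPKM + 1) scale. Among H2A genes it was -3.64 for Hist1h2ao, -3.44 for Hist1h2ap, -2.41 for Hist1h2ai, -1.59 for Hist1h2ab, -1.49 for Hist1h2ak, -1.34 for Hist2h2ac and -1.20 for Hist1h2an. Among linker histone genes it was -3.42 for Hist1h1b, -1.81 for Hist1h1e and -1.54 for Hist1h1a. The H4 genes Hist1h4d and Hist1h4i had -2.36 and -1.99, and the H3 gene Hist1h3i had -1.94. In the same fit 22 of 26 S phase and division genes, 8 of 11 variant histones and 6 of 11 chaperones had a more negative difference after irradiation, as did 8 of 8 neutrophil precursor and 5 of 10 erythroid markers.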

How the results depend on the processing

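The log2 difference of each called member kept its sign under the alternatives run (3183 pairs of a member and an alternative), and the count of members lower after irradiation (20) stayed between 19 and 21 outside the runs that left out a library. Whether the replicate numbers pair the libraries was not settled. The correlation of same-numbered deviations was below 0.1 in at least 1 pair of each of the 7 comparisons of single groups. It was -0.16, 0.26 and 0.21 in the irradiation comparison and 0.33, -0.06 and 0.3 in Apln+ EC against Diaphysis EC. With 3 libraries a group these values cannot show that pairing is absent. With the replicate block the members lower in total RNA went from 1 to 0 and those higher in LSK against Lin- from 1 to 0, and Hist1h1e (-0.78) and Hist1h2bc (-0.43) in DTX and Hist1h2ao (-0.86) in Apln+ EC lost their calls. Without the filter the counts were 0 lower in total RNA, 13 higher in Lin-, 0 higher in LSK and 4 higher in 9Gy1D EC, and voom gave 0 lower in total RNA. Median-of-ratios scaling gave 1 lower in Lin- and 0 higher in LSK. TPM, which shifted the median log2 difference of all genes to -0.63 in total RNA, 0.24 in Lin-, 1.2 in LSK against Lin-, -0.91 in Bone EC, 0.29 after irradiation, 0.24 in DTX and 0.25 in 9Gy1D EC, gave 2 members higher in LSK, 4 higher and 11 lower in Bone EC and 4 higher in DTX. Of all calls the percentage higher went with TPM from 43.1 to 16.9 in total RNA, 50.6 to 60.9 in Lin-, 56.7 to 89.6 in LSK, 49 to 17.6 in Bone EC, 53.8 to 67.2 after irradiation, 43 to 67.3 in DTX, 38 to 27.2 in Apln+ EC and 47.2 to 64.7 in 9Gy1D EC.

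Leaving out each library in turn gave 62 to 64 members higher and 0 to 1 lower in total RNA, 7 to 24 higher and 0 to 2 lower in Lin-, 0 to 1 higher and 27 to 57 lower in LSK, 6 to 10 higher and 2 to 4 lower in Bone EC, and 9 to 20 lower after irradiation. It gave 2 to 4 higher and 3 to 9 lower in DTX, 1 to 2 higher and 1 to 5 lower in Apln+ EC, 6 to 13 lower in 9Gy1D EC and 12 to 16 in the interaction. The ratio of mean shares of FPKM ran from 34.5 to 37.5 for total RNA and from 5.33 to 7.04 for Bone EC over irradiated cells. With Esm1+ EC replicates 1 and 2 averaged, an alternative chosen after seeing the data, 6 members were lower in 9Gy1D EC. Over the named values, the call was lost in 30 of the 285 runs that left out 1 library and still tested the gene. The cause was not tested. Runs in which the gene no longer passed the filter are not in this count. Members under 1 FPKM are a few reads in most poly(A)-primed libraries, so a low value there is not evidence of absence, and 8 members share their coding sequence with another.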

Other observations

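Hist1h2al was 1 of 16 genes with at least 1 FPKM in all 6 Apln+ EC and Esm1+ EC libraries and less than 1 FPKM in the other 21 poly(A)-primed libraries, a pattern looked for after its values were seen. Of the 16, 10 have the names of predicted genes or pseudogenes, among them Gm5506, at 36.6 to 126 FPKM in those 6 libraries and at most 0.483 FPKM in the others. The rest were Cd1d2, an antigen-presenting molecule, at 3.77 to 32.5 FPKM, Col13a1, a transmembrane collagen, Ear11, and the interferon-induced genes Ifi202b, at 2.38 to 18.8 FPKM, and Ifi44l, at 3.4 to 11.5 FPKM. Both groups carry R26-mTmG and tamoxifen, which the others do not.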
